A study of Arabidopsis thaliana with 4 samples.

Results

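The genes described here encode the early light-induced proteins and their relatives, the light-harvesting-like proteins of the thylakoid membrane. The 8 genes are ELIP1 (AT3G22840), ELIP2 (AT4G14690), OHP1 (AT5G02120, listed in RefSeq as OHP), OHP2 (AT1G34000), SEP1 (AT4G34190), SEP2 (AT2G21970), LIL3.1 (AT4G17600) and LIL3.2 (AT5G47110), found by their AGI codes among the 27554 genes of the deposited table. They were chosen by protein family, with the fold changes of ELIP1 and ELIP2 between the groups already known from these libraries. For the 8 genes the comparison of line 5 with wild type is therefore a description, given with fitted values and standard errors but with no p-value, and it is not used as support for anything else.

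Ribosome footprints, the mRNA pieces that translating ribosomes shield from nuclease, were counted in Arabidopsis thaliana seedlings aged 6 days. Wild type seedlings (WT) gave 2 libraries, and the other 2 came from line 5, a wild type background in which ClpD, a chloroplast Clp ATPase made in the cytosol as a precursor, is constitutively overexpressed. Per the submitters' title and design text, the study asked how plant cells respond when chloroplast precursor proteins accumulate. Line 5 is the only overexpression line here, the promoter that drives the transgene is not given in the sources used here, and the labels do not say whether the libraries of 1 genotype were grown separately. P-values given for genes outside the family thus measure only the spread between these libraries, which may be technical. The gene lists compared below were also chosen with earlier results of these data known. The genes named from them are mainly those with the smallest p of each list. Their p-values are therefore descriptive too.

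Light-harvesting proteins bind chlorophyll and carotenoids in helices that span the thylakoid membrane, and the light-harvesting-like proteins share that helix without serving mainly as antenna. ELIPs accumulate transiently when seedlings green or meet strong light, and are thought to hold free chlorophyll and limit photooxidation. OHP1 and OHP2 form a complex with HCF244 that is needed to make and assemble the D1 protein of photosystem II. The stress-enhanced proteins SEP1 and SEP2 were named for their induction by strong light, and LIL3 proteins anchor geranylgeranyl reductase, an enzyme that makes the phytol tail of chlorophyll, to the membrane.

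Total counts ranged from 27260818 to 42291527 per library, and each of the 8 genes had at least 145 counts in every library and entered the fit. ClpD was 18.8-fold higher in line 5 (edgeR, adjusted p = 0.00126), as labelled. The labels name whole seedlings, yet the 5 root markers IRT1, EXPA7, COBL9, CASP1 and NRT2.1 summed to only 0.0660 to 0.561 CPM (counts relative to the library total, scaled with TMM factors) with no single count above 10, and IRT1 was at 0 in every library. The green tissue markers RBCS1A, RCA and CA1 summed to 39100 and 44400 CPM in WT and 31900 and 27300 CPM in line 5. Seed storage transcripts, as the sum of CRA1, CRC and OLEO1, stood at 21.5 and 23.9 CPM in WT and 8.58 and 1.68 CPM in line 5; none of the 3 was at 0 in any library, and their part in the results was not tested. In such bulk samples, fewer cells of a type and less RNA per cell cannot be told apart, and footprint counts follow mRNA amount as well as ribosome occupancy.

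ELIP1 and ELIP2 stood far lower in line 5 than in WT, SEP2, OHP1 and OHP2 were lower by smaller amounts, and SEP1 and both LIL3 genes differed least. Fitted with edgeR across the 18737 genes with enough counts, 5 of the 8 were called lower at an adjusted p under 0.05 and 0 were called higher (0 also at an unadjusted p under 0.05). Over all genes tested the same rule called 8.72% lower and 6.72% higher. DESeq2 called the same 5 lower and 0 higher, against 12.2% and 8.49% of all genes. In the authors' deposited table these 5 also have an FDR under 0.05 and a negative log2 fold change, against 7.5% of its genes lower and 5.15% higher. Because the contrast was known when the genes were chosen, nothing is read from these counts. All 8 genes had WT libraries above both line 5 libraries in CPM, as did 33.4% of all genes tested, while 34.7% were above WT in both line 5 libraries.

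**Figure D1:**
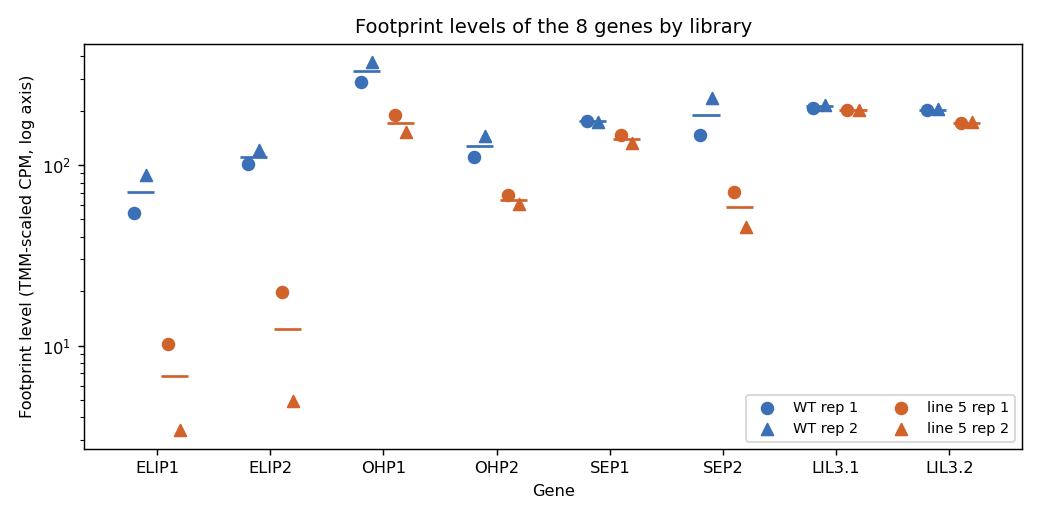
Footprint level of each of the 8 genes in TMM-scaled CPM on a log axis, with 1 point per library (circles replicate 1, triangles replicate 2) and a line at each group's mean. ELIP1 and ELIP2 lie lowest in line 5 and their line 5 libraries lie farthest apart, while the LIL3 points of each group nearly coincide.

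ELIP1 was counted 1532 and 2124 times in the WT libraries and 464 and 145 times in the line 5 libraries, replicate 1 first in each case. Scaled, these are 54.0 and 87.7 CPM in WT and 10.2 and 3.39 CPM in line 5. Both line 5 libraries were thus below both WT libraries, and replicate 2 of line 5 was lowest. The fitted log2 fold change was -3.38 (SE 0.570), a WT level 10.4 times that of line 5. It was 20.9 times without replicate 1 of line 5 and 6.92 times without replicate 2.

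ELIP2 followed its paralog. Its counts were 2866 and 2941 in WT and 896 and 210 in line 5, or 101 and 121 CPM against 19.7 and 4.91 CPM. Again the groups did not overlap and replicate 2 of line 5 was lowest, more than an order of magnitude below either WT library. The log2 fold change was -3.17 (SE 0.649), a WT level 9.02 times that of line 5, which became 22.6 without replicate 1 of line 5 and 5.63 without replicate 2. Of the 18737 genes tested, 54 had a lower fitted log2 fold change than ELIP1 and 67 a lower one than ELIP2.

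The ELIP genes also varied between libraries of one genotype. In line 5, replicate 1 was 3.02 times replicate 2 for ELIP1 and 4.02 times for ELIP2. Of all genes tested, 0.358% differed more between the line 5 libraries than ELIP1 and 0.144% more than ELIP2, on the log2 CPM scale. The difference between the WT libraries was 0.70 for ELIP1 and 0.26 for ELIP2 on that scale, with replicate 2 higher.

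The single-helix proteins OHP1 and OHP2 were lower in line 5 by nearly equal amounts. OHP1, the most abundant of the 8 per length, had 290 and 370 CPM in WT and 189 and 152 CPM in line 5, from counts of 8215, 8977, 8590 and 6513. Its log2 fold change was -0.95 (SE 0.177). OHP2 had 111 and 144 CPM in WT and 67.9 and 60.5 CPM in line 5, with a log2 fold change of -0.99 (SE 0.160). In both genes the 4 libraries kept the same order, with WT replicate 2 highest and line 5 replicate 2 lowest. WT levels were 1.93 times those of line 5 for OHP1 and 1.99 times for OHP2.

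The stress-enhanced genes differed from each other. SEP2 had 146 and 235 CPM in WT and 71.4 and 45.5 CPM in line 5 (counts 4139, 5692, 3242 and 1947), a log2 fold change of -1.70 (SE 0.317). SEP1 had 176 and 174 CPM in WT and 147 and 133 CPM in line 5 (counts 4985, 4217, 6684 and 5692), with -0.32 (SE 0.103), and was not called. The WT libraries of SEP2 lay 0.69 apart on the log2 scale, those of SEP1 0.01. SEP2 therefore showed both a larger difference between genotypes and a wider spread within them than SEP1.

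LIL3.1 had nearly the same level in all libraries, while LIL3.2 was slightly lower in both line 5 libraries than in both WT libraries. LIL3.1 had 207 and 215 CPM in WT and 203 and 202 CPM in line 5, a log2 fold change of -0.06 (SE 0.0942). LIL3.2 had 203 and 203 CPM in WT and 170 and 173 CPM in line 5, with -0.24 (SE 0.0925). Neither was called, and the libraries of each group lay within 0.06 of each other on the log2 scale. These small values depend on the scaling: with library totals alone the median of all genes moves from 0.00 to 0.24, and the values become 0.18 for LIL3.1, -0.0023 for LIL3.2 and -0.08 for SEP1. All 3 values lie below that median. The authors' deposited table, whose fold changes are ratios of FPKM, gives 0.18 for LIL3.1 and -3.14 for ELIP1.

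Per length, the order of the 8 genes differed between the groups in its middle, while OHP1 and SEP1 led and the ELIP genes came last in both. Levels are the authors' FPKM (fragments scaled to gene length and library total). In WT, OHP1 led with 829 ± 103 (SD, n = 2), followed by SEP1 with 340 ± 19.1. SEP2 (271 ± 76.9), LIL3.1 (237 ± 5.06), LIL3.2 (231 ± 10.8) and OHP2 (212 ± 29.0) came next, and the ranges of neighbours in this stretch overlapped. ELIP2 at 166 ± 13.4 and ELIP1 at 104 ± 30.2 were the lowest, each with a range that did not overlap the next. Of all genes tested, 5.32% had a higher mean FPKM in WT than ELIP2 and 8.02% a higher one than ELIP1.

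In line 5 the order was OHP1 (507 ± 69.9 FPKM), SEP1 (321 ± 18.0), LIL3.1 (268 ± 2.85), LIL3.2 (230 ± 6.29), OHP2 (126 ± 8.31), SEP2 (98.7 ± 29.5), ELIP2 (21.6 ± 18.2) and ELIP1 (11.8 ± 8.27). SEP2, the third in WT, was the sixth here, and only the ELIP genes overlapped in range with a neighbour, namely each other. The summed FPKM of the 8 genes was 2236 and 2545 in WT and 1686 and 1484 in line 5. ELIP1 and ELIP2 together made up 10.7% and 11.8% of that sum in WT and 3.1% and 0.995% in line 5. The share of the LIL3 pair was 21.4% and 17.9% in WT and 29.2% and 34.0% in line 5. OHP1 kept close to its share, with 33.8%, 35.4%, 33.0% and 30.8% in the same order of libraries. These are shares of a sum that was itself lower in line 5. FPKM is scaled to library totals, and with that scaling the median log2 fold change of all genes was 0.24, against 0.00 with TMM. From WT to line 5, mean FPKM went from 237 to 268 for LIL3.1 and from 231 to 230 for LIL3.2, beside TMM-scaled log2 fold changes of -0.06 and -0.24. For OHP1 it went from 829 to 507.

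**Figure D2:**
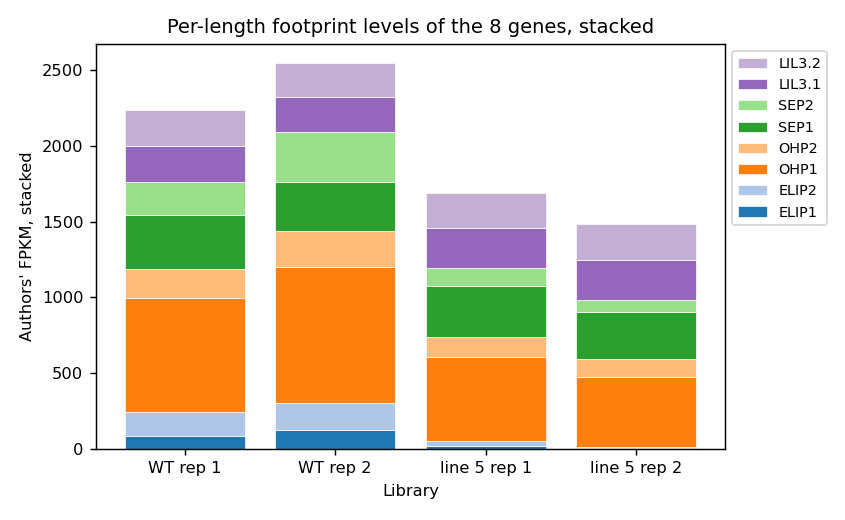
Authors' FPKM of the 8 genes stacked for each library, so that the height of a bar is their sum. The sum is 2545 in the highest WT library and 1484 in the lowest line 5 library, where the ELIP segments at the bottom make up 11.8% and 0.995% of it.

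Ratios between genes of one library do not depend on the scaling of libraries. ELIP2 over ELIP1 in FPKM was 1.89 and 1.4 in WT and 1.95 and 1.46 in line 5, so the ratio was alike in the groups although both genes were about an order of magnitude lower in line 5. OHP1 over OHP2, whose proteins act as a complex, was 3.94 and 3.88 in WT and 4.2 and 3.79 in line 5. LIL3.1 over LIL3.2 was 1.01 and 1.04 in WT and 1.17 and 1.15 in line 5, a small difference without overlap. SEP2 over SEP1 was 0.613 and 0.996 in WT and 0.358 and 0.252 in line 5, the widest separation of the 4 pairs. The ELIP genes are close relatives, as are the LIL3 genes, and how reads that match both copies were divided is not given in the sources used here, so the split between copies is uncertain.

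The antenna genes, relatives of the family, all had negative log2 fold changes in the edgeR fit, and part of them were called lower. Of 21 LHCA and LHCB genes tested, 10 were called lower and 0 higher, against 8.72% and 6.72% of all genes. At an unadjusted p under 0.05 in edgeR, 17 were lower and 0 higher, and DESeq2 called 0 higher. Their median log2 fold change was -0.50 against 0.00 for all genes. In the authors' deposited table, 20 of the 21 were negative. LHCB2.1 (AT2G05100), a subunit of the major photosystem II antenna, had 10200 and 11670 CPM in WT, 5203 and 4525 CPM in line 5 (log2 fold change -1.17, SE 0.155, edgeR, adjusted p = 0.0211). LHCB2.2, LHCB1.1 and the minor antenna gene LHCB4.2 fell by 1.16, 1.03 and 0.86 on the log2 scale. DESeq2 called 16 of the 21 lower. Several LHCB1 and LHCB2 genes are near-identical copies whose reads may have been divided in the counting. The OHP genes, at -0.95 and -0.99, thus lay within the antenna range of -1.17 to -0.07, and the ELIP genes and SEP2 below it. Whether the family differs from the antenna genes as a group was not tested.

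**Figure D3:**
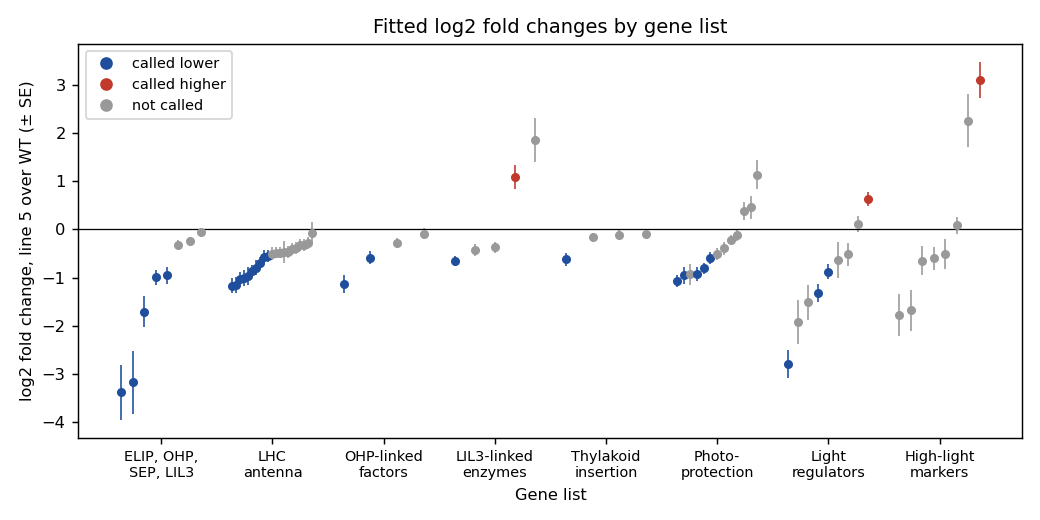
Fitted log2 fold change of line 5 over WT with its standard error for each gene, by list, coloured by the edgeR call. ELIP1 and ELIP2 at -3.38 and -3.17 are the lowest points plotted, followed by SIG5 at -2.79, and HSFA2 at 3.1 is the highest.

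Among the genes that work with OHP1 and OHP2 in photosystem II assembly, 2 of 4 fell and 0 rose (0 also at an unadjusted p under 0.05 and by DESeq2), with a median of -0.43. With library totals in place of TMM, or without replicate 2 of WT, only 1 of the 4 was called. HCF173, needed for translation of the mRNA for D1, fell by 1.13 (SE 0.187; edgeR, adjusted p = 0.0271), with WT at 342 and 467 CPM and line 5 at 199 and 170 CPM. HCF244, the partner of the OHP complex, fell by 0.58 (SE 0.132; edgeR, adjusted p = 0.0462), with 419 and 471 CPM beside 321 and 272 CPM. The assembly factors HCF136, with -0.28, and LPA1, with -0.09, were not called. The value of HCF173 stands beside -0.95 and -0.99 for the OHP genes.

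Enzymes linked to LIL3 moved both ways, with 1 of 5 lower and 1 higher and a median of -0.37. PORC, the protochlorophyllide oxidoreductase of light-grown tissue, fell by 0.66 (SE 0.110; edgeR, adjusted p = 0.0274). PORA, the form of dark-grown seedlings, rose 2.14-fold, with a low level of 0.882 and 0.784 CPM in WT and 1.8 and 1.77 CPM in line 5 (edgeR, adjusted p = 0.0460), a call that DESeq2 did not make. Its counts of 19 to 82 are few, and reads may be shared with its close paralog PORB. PORB had 92.1 and 69.7 CPM in WT and 165 and 417 CPM in line 5, with the groups not overlapping but line 5 libraries far apart, and was not called (log2 fold change 1.85, SE 0.456, edgeR, adjusted p = 0.0552), though DESeq2 called it. Geranylgeranyl reductase (GGR), the LIL3 client, and the chlorophyll synthase gene CHLG had -0.37 and -0.42 and were not called by edgeR. With library totals in place of TMM the call of PORC was lost, and that of PORA was lost without replicate 2 of WT. Of 4 genes that insert light-harvesting proteins into the thylakoid, CPSRP43, a chaperone of those proteins, fell by 0.62 (SE 0.136; edgeR, adjusted p = 0.0444). That call was lost with library totals and also without replicate 2 of WT. CPSRP54, ALB3 and CPFTSY, with -0.16, -0.10 and -0.09, were not called.

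Photoprotection genes were lower in part. Of 13 tested, 5 fell and 0 rose by edgeR (1 was higher at an unadjusted p under 0.05), with a median of -0.51, and DESeq2 called 7 lower and 1 higher. PSBS, the relative of the antenna proteins that senses lumen acidity for heat dissipation, had 1762 and 1959 CPM in WT and 1080 and 889 CPM in line 5 (log2 fold change -0.92, SE 0.147; edgeR, adjusted p = 0.0262). LUT2, the lycopene epsilon-cyclase of lutein synthesis, fell by 1.07 (SE 0.128), ZEP, which makes violaxanthin, by 0.81 (SE 0.113), and PGR5, of cyclic electron flow, by 0.95 (SE 0.184). VDE, the enzyme that converts violaxanthin in the other direction, had 0.46 (SE 0.247) and was not called. LCNP, of the same list, had 10.3 and 10.65 CPM in WT and 16.3 and 29.8 CPM in line 5. Its log2 fold change was 1.14 (SE 0.302; edgeR, adjusted p = 0.0637), and it was the gene that DESeq2 alone called higher. Of the 13 fitted log2 fold changes, 10 were negative.

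Genes of blue and ultraviolet light signalling, among them photoreceptors, activators, repressors and a plastid sigma factor, moved both ways. Of 9 tested, 3 fell and 1 rose by edgeR, and 5 fell and 1 rose by DESeq2. HY5 (AT5G11260), the bZIP factor required for light induction of ELIP genes, had 9.63 and 11.3 CPM in WT and 4.64 and 3.71 CPM in line 5 (log2 fold change -1.32, SE 0.183; edgeR, adjusted p = 0.0221). SIG5, a nucleus-encoded plastid sigma factor induced by blue light, had 166 and 167 CPM in WT and 30.9 and 17.3 CPM in line 5 (log2 fold change -2.79, SE 0.293; edgeR, adjusted p = 0.0152). COP1, the ubiquitin ligase that removes HY5 in the dark, fell by 0.87 (SE 0.147), and the ultraviolet-B receptor gene UVR8 rose by 0.64 (SE 0.146; edgeR, adjusted p = 0.0471), a call lost without replicate 2 of WT. The median of the 9 genes was -0.87. On the FPKM scale of the authors' deposited table, where the typical gene is shifted up, the list medians were -0.63 for these regulators, -0.28 for photoprotection, -0.26 for the antenna and -0.19 for the OHP-linked genes. The median of the insertion list had the opposite sign there, 0.11 against -0.13.

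Other genes induced by strong light had fold changes of both signs, with 5 of 8 negative and a median of -0.55. Of 8 tested, 0 fell and 1 rose by edgeR, while 2 were lower and 2 higher at an unadjusted p under 0.05, and DESeq2 called 2 lower and 2 higher. The gene that rose was the heat shock factor HSFA2 (1.83 and 0.784 CPM against 12.6 and 10.2 CPM; log2 fold change 3.1, SE 0.378; edgeR, adjusted p = 0.0184). APX2, an ascorbate peroxidase of strong light and heat, had 2.25 (SE 0.549). The flavonoid genes CHS, with -1.68 (SE 0.430), and PAP1, with -1.78 (SE 0.436), went the other way, and none of these 3 was called by edgeR.

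Some other listed genes also had lower values in replicate 2 of line 5 than in its replicate 1, as the ELIP genes did. On the log2 scale CHS was 1.3 lower in replicate 2, PAP1 1.17, HYH, a homologue of HY5, 1.03, RUP2, a repressor of UVR8, 1.01 and SIG5 0.84, next to 1.58 for ELIP1, 1.99 for ELIP2 and 0.65 for SEP2. APX2, whose fitted fold change from WT is positive, was 1.14 lower, and PORB was 1.34 higher. Of the 8 family genes, 7 were lower in replicate 2 of line 5, as were 7 of the 8 genes induced by strong light, 5 of the 9 light regulators and 11 of the 21 antenna genes, against 50.1% of all genes tested. The other lists had 10 of 13 photoprotection genes, 3 of 4 OHP-linked genes, 3 of 5 LIL3-linked genes and 1 of 4 insertion genes lower there. The seed storage sum also was lower there, with 1.68 against 8.58 CPM. These genes, apart from the family, were named after their values were seen, and what differed between the line 5 seedlings of the libraries was not tested. The WT libraries differed too. In WT, replicate 2 was lower for 1 of the 8 family genes and 1 of the 9 light regulators. It was lower for 3 of 8 strong-light genes, 8 of 21 antenna genes and 2 of 13 photoprotection genes. The OHP-linked, LIL3-linked and insertion lists had 0, 3 and 1 such genes, against 9481 of all 18737 genes tested. Across genes, the log2 difference between libraries had an SD of 0.512 in WT and 0.344 in line 5.

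**Figure D4:**
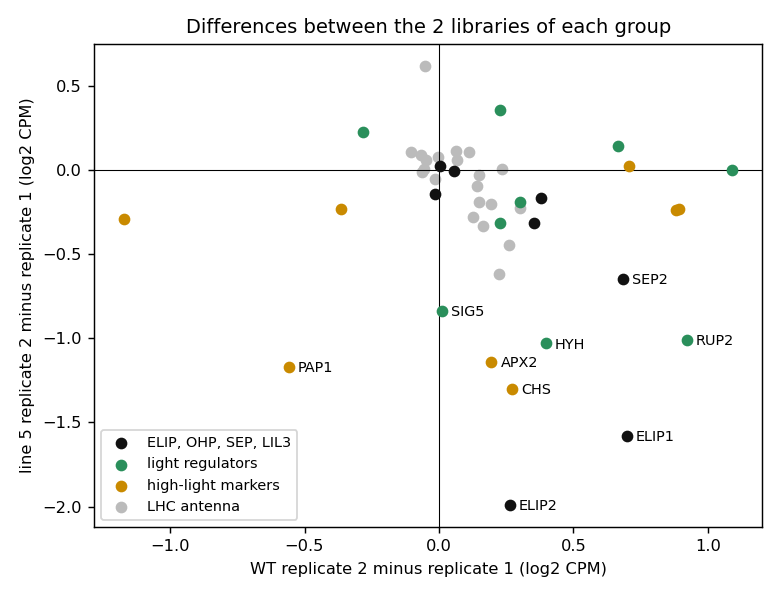
Difference in log2 CPM between the libraries of line 5 (vertical axis) and of WT (horizontal axis) for 4 gene lists, with 1 point per gene. ELIP2 at -1.99 and ELIP1 at -1.58 lie lowest on the vertical axis, while the antenna genes lie between -0.62 and 0.62.

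The genes whose 4 library values were most like those of the ELIP genes were found by the distance between log2 CPM profiles centred on each gene's mean, over 12917 other genes with a mean of at least 5 CPM. The nearest to ELIP1 was AT3G28270, annotated as a putative transmembrane protein of family DUF677, at a distance of 0.128. It had 101 and 146 CPM in WT and 17.8 and 6.24 CPM in line 5, above ELIP1 in each library by a nearly constant factor. COL2, a CONSTANS-like zinc finger factor with a morning peak (distance 0.327), the cysteine proteinase gene AT2G27420 (0.405), ELIP2 (0.429) and the uncharacterized AT2G15020 (0.715) followed.

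For ELIP2 the nearest were AT3G28270 (0.399), ELIP1 (0.429), LHY (0.712), COL2 (0.749) and AT2G27420 (0.833). LHY, a transcription factor of the circadian clock that peaks at dawn, had 75.6 and 127 CPM in WT and 12.9 and 2.57 CPM in line 5. ELIP1 and ELIP2 were thus among the nearest genes of each other. All of these genes were lower in both line 5 libraries than in both WT libraries and lowest in replicate 2 of line 5. Choosing genes by likeness to the ELIP profiles selects for this pattern, so it is not a separate result. The hour of harvest is not given in the sources used here.

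**Figure D5:**
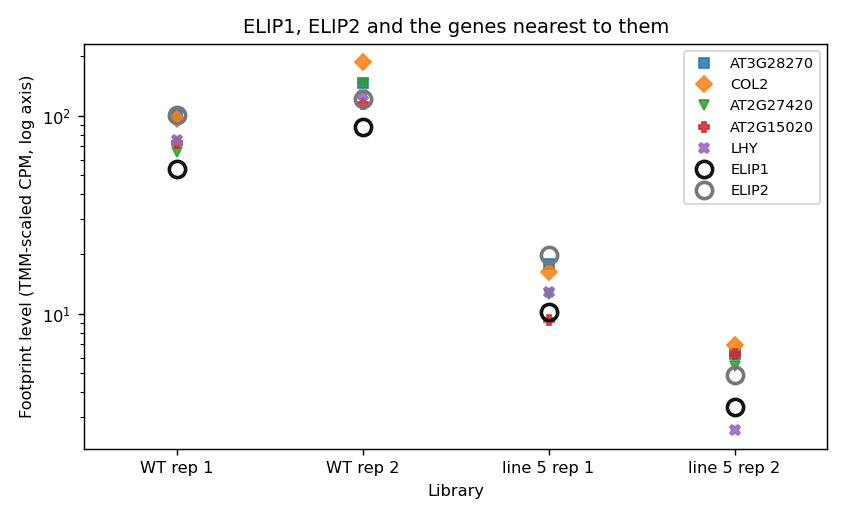
Footprint level in TMM-scaled CPM on a log axis of ELIP1 and ELIP2 (open circles) and of the 5 other genes nearest to them, by library. All 7 genes are lowest in replicate 2 of line 5, where LHY stands at 2.57 and ELIP1 at 3.39. Picking genes by likeness to the ELIP genes selects for this pattern.

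The fits without 1 of the line 5 libraries take their error from the WT pair alone. A call lost there therefore does not show that the lower level depends on both line 5 libraries. ELIP1 had a log2 fold change of -4.38 without replicate 1 of line 5 and -2.79 without replicate 2. Without replicate 1 of line 5 edgeR called only ELIP2 of the 8 genes lower, and without replicate 2 it called 0, while the log2 fold changes of the 5 genes kept their sign. Over the whole table these fits called 14 and 3 genes lower, with 0 antenna genes in either, and 1 and 0 of the 43 other listed genes. Without replicate 1 of WT, 24 of those 43 were called lower, against 12 with all libraries.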

How the data were processed

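Per the labels' protocols, seedlings were frozen, lysed with cycloheximide and digested with RNase I and DNase I. The authors deposited 1 table that gives, per the file headers, each gene's count and FPKM in every library together with group means, log2 fold change, p-value and FDR. The submitters' processing notes list fastp, Bowtie2, STAR, RSEM, DESeq2 and build TAIR10. The sources used here do not give their versions or roles, strand settings or the test behind the deposited p-value. Deposited counts are whole numbers and may be rounded RSEM estimates. The deposited FPKM values, which divide counts by length and library total, were used for levels between genes and, as an alternative, for the ratio of group means. The deposited log2 fold change equals the ratio of mean FPKM.

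The rows with no gene identifier, 5 in all, held 0.0145% to 0.0341% of a library's counts and were left out. RefSeq (assembly TAIR10.1) named 27444 of 27554 identifiers. The deposited names of SEP1 and SEP2 appear as numbers, so genes were matched by AGI code; no coordinates or sequences are used here. The test was edgeR 4.0.16 in R 4.3.3: filterByExpr with a minimum count of 10, TMM (factors 0.953, 0.889, 1.07 and 1.10 in the order WT then line 5), a quasi-likelihood fit on group, two-sided, with Benjamini-Hochberg adjustment over 18737 genes. SE is the log2 fold change over the root of F. Replicates were not duplicates: chi-square over its degrees of freedom was 39.3 between WT libraries and 25.8 in line 5. Counts of 3 correspond to 0.0660 to 0.124 CPM. Scripts were tested on simulated data.

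Members and lists were chosen with earlier results of these data known. The rule for named genes takes the 8 genes, up to 4 genes of each list with the smallest p and the 5 genes nearest to each ELIP gene. ClpD, GGR, VDE, LCNP, HYH, RUP2 and the marker genes stand outside it. Alternatives were DESeq2 1.42.0, other scalings and filters, the replicate block and each library left out.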

Additional observations from a re-analysis of the deposited data

How the results depend on the processing

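The 5 family genes called lower (ELIP1, ELIP2, OHP1, OHP2 and SEP2) also numbered 5 with DESeq2, RLE size factors, library totals, organelle-encoded genes left out, no filter and a stricter filter (5 CPM in 2 libraries). With 1 library left out the count ranged from 0 to 5; fewer libraries leave 1 group without a spread of its own, and the lone library is assumed to vary like the other group. These fits called 0 to 10 antenna genes lower, 0 to 24 of the 43 other listed genes lower and 0 to 3 higher, and 3 to 2904 of all genes lower and 25 to 2197 higher. With the replicate block, 0 family genes, 0 antenna genes and 3 of the 43 were lower and 1 higher, with 457 and 286 over all genes, and ELIP1 had -3.51. The replicate numbers are not known to pair libraries: differences within the pairs correlated at -0.117 across genes. A block with crossed numbers, chosen after seeing the data, called 5 family genes and 18 of the 43 lower and 5 of the 43 higher. DESeq2 called 16 antenna genes and 19 of the 43 lower and 5 higher, and no filter gave 6 higher. With library totals alone, also added after seeing the data, 6 of the 43 and 3355 of all genes were higher, so that lower calls made up 26.8% of all calls against 56.4%; LIL3.1 turned to 0.18, as it did in the authors' deposited table (0.18) and as the ratio of mean FPKM (0.18). No coding lengths were used here, so the order of levels per coding length was not run. ELIP counts in line 5 (145 to 896) are far above the floor, so the spread between libraries, not depth, sets their error.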
